A study of Mus musculus with 21 samples.

Results

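The genes described are those of glutamatergic transmission: the ionotropic and metabotropic glutamate receptors, the vesicular glutamate transporters and a few scaffold proteins of the postsynaptic side. They were taken as a fixed list of 34 symbols, and each probe set whose annotation named one of these symbols alone was used. This gave 64 probe sets of 30 genes, out of 45037 probe sets tested on the Affymetrix mouse genome array. Grin1, Grm6, Slc17a8 and Shank2 had no probe set of their own in the annotation used and were not analysed here. By role the probe sets comprised 10 for AMPA receptor subunits, 8 for kainate receptor subunits, 12 for NMDA receptor subunits, 2 for the delta receptor gene Grid1, 2, 2 and 5 for metabotropic receptors of groups I, II and III, 3 for vesicular transporters and 20 for scaffolds.

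The study compared mice that lack cystatin B (Cstb-/-), a model of the progressive myoclonus epilepsy EPM1, with wild type (WT) mice, both on the 129SvJ background. RNA came from the cerebella of Cstb-/- (n = 4) and WT mice (n = 4) at P7, before symptoms, from the cerebella of Cstb-/- (n = 3) and WT mice (n = 3) at P30, and from granule cell cultures of Cstb-/- (n = 3) and WT (n = 4) P5 pups. The meninges had been removed before the cells of both genotypes were plated, and AraC, which stops dividing cells, had been added to them before harvest at 2 days in vitro. The deletion is present in the whole animal, and each array is a sample with its own label. Where nothing says that arrays came from separate cultures, p-values measure the spread between arrays, which may be technical.

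Glutamate is packed into synaptic vesicles by the vesicular transporters, released, and read by receptors of separate kinds. AMPA, kainate and NMDA receptors are ion channels assembled from the subunits encoded by Gria, Grik and Grin genes, whereas metabotropic receptors act through G proteins. In the cerebellum, granule cells receive glutamate from mossy fibres and release it from parallel fibres onto Purkinje cells. Homer, Shank, Dlg4 (PSD-95) and Dlgap1 proteins hold the receptors in place beneath the membrane.

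Each value below is a log2 signal relative to the mean of the WT arrays of the same experiment. Values stand in the order of the array numbers, which are 1, 2, 3 and 5 for Cstb-/- and 1 to 4 for WT cerebella at P7, 1 to 3 for both genotypes at P30, and 1 to 3 for Cstb-/- and 4, 5, 7 and 8 for WT cultures. The deposited values had the median of each probe set subtracted within an experiment, so levels cannot be compared between genes or between experiments, and the presence of the defining markers of a cell type cannot be read from them. Cstb itself was lower in Cstb-/- arrays in the 3 experiments, at log2 differences between -3.10 and -1.86, with no overlap between the genotypes. In tissue, fewer cells of a type and less RNA per cell cannot be told apart. In cultures, 51.3% of the probe sets held arrays with tied values, 31 of the 64 member probe sets among them. Each of these 31 had 2 or more arrays at exactly 0 in the deposited values, as had 2 members at P30 and none at P7. For Grm7 1458861_at and Dlgap1 1438098_at all Cstb-/- culture arrays had the same value. The part of these ties in the results was not tested.

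At P7, none of the 64 probe sets passed the thresholds of a 1.3-fold difference and an adjusted p under 0.05, while 3 of all probe sets did (0.00666%). At an unadjusted p under 0.05, 10 were higher and 3 lower in Cstb-/- cerebella, 20.3% of the members against 9.45% of all probe sets. The arrays of the genotypes did not overlap for 5 higher and 1 lower probe sets, 9.38% against 5.65%. Of the 64 values, 43 were higher in Cstb-/- cerebella, 67.2% against 53.7% of all probe sets, and the median difference was 0.08 on the log2 scale against 0.01. A fold of 1.3 was reached by 3 of them, 4.69% against 1.63%. Means over the 64 were -0.021, 0.077, 0.167 and 0.038 in Cstb-/- arrays, so that array 1 lay below every WT array (-0.019 to 0.018). The range was wider in Cstb-/- than in WT arrays for 68.8% of the members, against 51.5% of all probe sets. Over all arrays the median range was 0.54 against 0.39. The part of this spread in the shares above was not tested.

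At P30 none passed either, while 65 of all probe sets did (0.144%). At an unadjusted p under 0.05, 5 were higher and 2 lower in Cstb-/- cerebella, 10.9% against 7.72%. Arrays were apart for 7 probe sets, 10.9% against 12.5%, and 36 of 64 values were higher, 56.2% against 47% of all probe sets. The 4 probe sets that reached a fold of 1.3 were higher in Cstb-/- cerebella, 6.25% of the members against 1.39%. They belonged to Grm5, Grik1 and Homer1.

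In granule cell cultures 1 of the 64 probe sets, of Gria2, fell at the stricter adjusted p under 0.01, against 2.54% of all probe sets changed in either direction and 0.469% that fell. At an unadjusted p under 0.05, 4 were higher and 9 lower in Cstb-/- cultures, 20.3% against 31.6%, and arrays were apart for 11, 17.2% against 22.8%. A fold of 1.3 was reached by 9, 14.1% against 18.4%, and 27 values were higher, 42.2% against 45.5%. Apart from the share that fell, which is a single probe set, these shares lay below those of all probe sets, and nothing is read from them about the members.

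**Figure D1:**
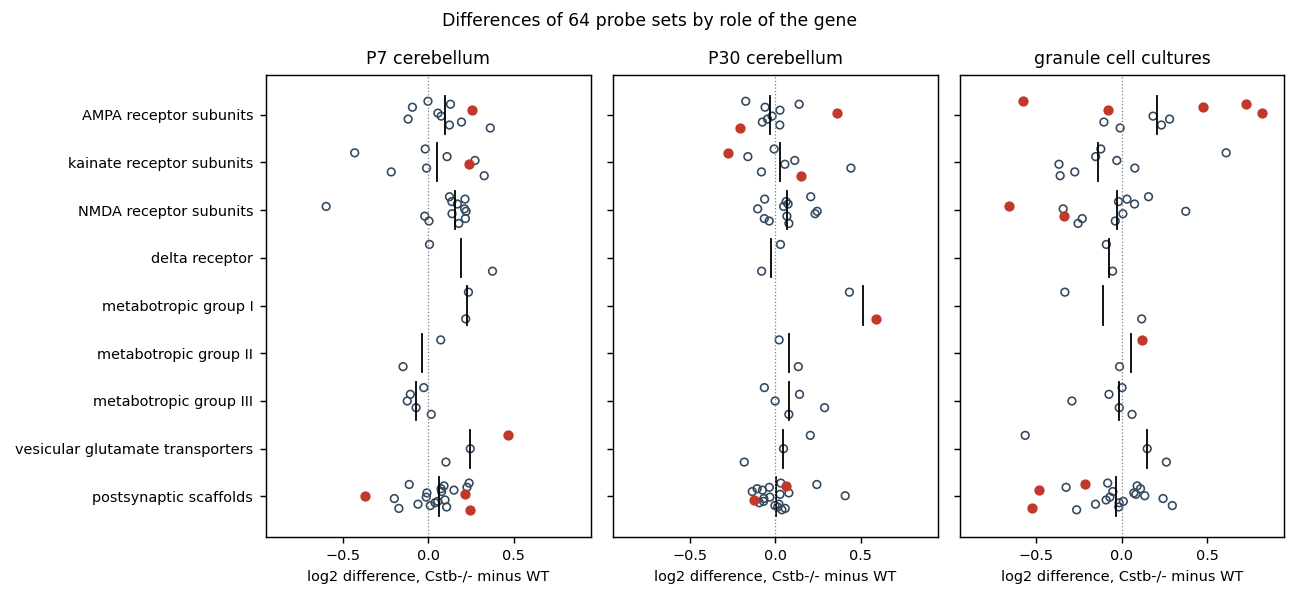
Log2 difference (Cstb-/- minus WT, horizontal axis) of each of the 64 probe sets, by the role of its gene (vertical axis) in P7 cerebellum, P30 cerebellum and granule cell cultures. Filled points mark probe sets whose arrays did not overlap between the genotypes, open points the others, and black bars the median of each role; the AMPA receptor subunits spread most widely in cultures, between -0.58 and 0.82.

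The AMPA receptor carries most fast excitation, and its Gria2 subunit (GluA2) makes the channel nearly impermeable to calcium. In Cstb-/- cultures the Gria2 probe set 1453098_at measured -0.47, -0.69 and -0.57, against -0.03, 0.02, 0.08 and -0.07 in WT cultures. Every Cstb-/- array thus lay below every WT array. Gria2 fell 1.49-fold by this probe set (log2 difference -0.58, SE 0.08, adjusted p = 0.00516, limma). On leaving out 1 array in turn, the call held only without Cstb-/- array 2 and was lost without any of the other 6, with values between -0.63 and -0.55 and adjusted p between 0.0117 and 0.0269.

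The other probe sets of Gria2 were not called and overlapped between genotypes. 1434146_at measured 0.41, 0.06 and 0.37 in Cstb-/- cultures, against 0.26, -0.30, 0.03 and 0.01 in WT cultures, and 1421970_a_at differed by -0.11 with overlapping arrays. The mean of the 3 Gria2 probe sets differed by -0.13 (adjusted p = 0.368), so that the fall was seen in 1 probe set rather than in the gene as a whole. The probe set that fell was designed from a cDNA clone, and 1421970_a_at from a RefSeq mRNA; which stretch of the transcript each reads was not analysed here. In P7 cerebella 1453098_at differed by 0.00 in size (SE 0.09) and in P30 cerebella by -0.17 (SE 0.10, adjusted p = 0.742).

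The Gria2 call stood close to its threshold. It was lost on leaving out Cstb-/- array 1 (adjusted p = 0.0117) or 3 (0.0269), or WT array 4 (0.0126), 5 (0.0177), 7 (0.0224) or 8 (0.0206), and kept without Cstb-/- array 2 (0.00749), while the log2 difference stayed between -0.63 and -0.52.

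The 250 bases before the annotated start of Gria2 are shown because this gene held the one call among the members, and those of Slc17a7 because its difference had opposite signs in cultures and P7 cerebella. The sequences are those of RefSeq on GRCm38.p6, at chr3:80802836-80803085 (minus strand) and chr7:45163671-45163920 (plus strand), and each ends at the base before the start of the transcript. Capitals mark matches to the GC box GGGCGG on either strand.
Gria2: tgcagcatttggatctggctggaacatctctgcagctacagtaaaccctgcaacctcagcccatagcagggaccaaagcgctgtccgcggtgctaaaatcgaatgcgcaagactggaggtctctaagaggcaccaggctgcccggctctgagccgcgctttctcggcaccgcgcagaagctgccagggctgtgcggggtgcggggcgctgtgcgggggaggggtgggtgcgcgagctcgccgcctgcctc
Slc17a7: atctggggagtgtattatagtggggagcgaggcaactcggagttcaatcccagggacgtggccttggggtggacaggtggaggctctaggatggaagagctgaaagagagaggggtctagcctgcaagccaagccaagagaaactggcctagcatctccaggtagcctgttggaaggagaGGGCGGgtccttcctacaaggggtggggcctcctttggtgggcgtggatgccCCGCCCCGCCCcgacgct

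The Gria2 window held no GC box and the Slc17a7 window held 3, of which the last 2 overlap, so that they appear as 1 run of capitals. Of 30 member genes, 20 were found in the promoter table, with 29 start sites. A GC box was present in 14 of these 29 windows (48.3%), against 32.7% of the 32851 windows of the same length in the table. The cyclic AMP response element TGACGTCA was found in none of the 29, against 1.55% of all windows. These are matches of letters, and no binding was measured.

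Gria1 encodes the GluA1 subunit, which in the cerebellum is known from Bergmann glia and Purkinje cells as well as from neurons elsewhere. In Cstb-/- cultures the Gria1 probe set 1448972_at measured 0.90, 0.44 and 0.84, against 0.10, -0.03, 0.10 and -0.17 in WT cultures. The second Gria1 probe set, 1435239_at, measured 1.16, 0.18 and 1.12, against 0.11, 0.07, -0.08 and -0.09. In both, Cstb-/- array 2 was the lowest of the Cstb-/- arrays and still above every WT array.

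The log2 differences of Gria1 in cultures were 0.73 (SE 0.13, adjusted p = 0.0128) and 0.82 (SE 0.22, adjusted p = 0.0520), neither under the threshold of 0.01. Without Cstb-/- array 2, the lowest of the Cstb-/- arrays, both passed it, at log2 differences of 0.87 (adjusted p = 0.00359) and 1.14 (adjusted p = 0.00111). Without any of the other 6 arrays neither passed: 1448972_at then lay between 0.64 and 0.76 (adjusted p of 0.0229 to 0.0630) and 1435239_at between 0.65 and 0.86 (adjusted p of 0.0703 to 0.190). Astrocyte and Bergmann glia markers moved in the same arrays: 21 of 21 probe sets were higher in Cstb-/- cultures, 1 of them changed (Aldh1l1), with a median of 0.44 and array means of 0.32 to 0.72 in Cstb-/- arrays and -0.13 to 0.25 in WT arrays. Their part in the Gria1 values was not tested.

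Gria1 was also higher at P30, by 0.25 as the mean of its probe sets, with overlapping arrays for 1448972_at. 1435239_at measured 0.49, 0.44 and 0.16 in Cstb-/- cerebella, against -0.06, 0.07 and -0.02 in WT cerebella, with no overlap, a log2 difference of 0.36 (SE 0.10) and an adjusted p of 0.401, the lowest of the members at this age. The same glial markers were higher in 19 of 21 probe sets at P30 (median 0.20, 3 changed, all of Gfap), and their part in this value was not tested either. At P7 the difference of 1435239_at was 0.06 (SE 0.07) and that of 1448972_at was 0.13 (SE 0.12), with overlapping arrays.

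Gria3 and Gria4 encode the remaining AMPA subunits, of which Gria4 is known from granule cells and Bergmann glia. At P7 the Gria4 probe set 1435722_at measured 0.37, 0.18, 0.24 and 0.22 in Cstb-/- cerebella, against -0.04, -0.00, 0.07 and -0.03 in WT cerebella. The arrays did not overlap, and the log2 difference was 0.25 (SE 0.07, adjusted p = 0.347). The other Gria4 probe sets differed by 0.12 and -0.09 with overlapping arrays.

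Gria3 1420563_at had the largest difference of the AMPA subunits at P7, 0.36 (SE 0.13, adjusted p = 0.454). It measured 0.67, 0.12, 0.34 and 0.32 in Cstb-/- cerebella, against -0.06, -0.07, 0.32 and -0.19 in WT cerebella, where array 3 reached into the Cstb-/- range. At P30 the same probe set pointed the other way, at -0.20 (SE 0.08, adjusted p = 0.597), with -0.28, -0.15 and -0.18 in Cstb-/- arrays against -0.10, 0.08 and 0.03 in WT arrays. In cultures Gria4 1440891_at measured 0.65, 0.39 and 0.38 in Cstb-/- arrays, against 0.11, -0.34, 0.15 and 0.07 in WT arrays (log2 difference 0.47, SE 0.13, adjusted p = 0.0605). Gria4 1435722_at pointed the other way in cultures, lower in Cstb-/- arrays without overlap, within a range of 0.17 over all arrays. The mean of the Gria4 probe sets differed by 0.21 in cultures.

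**Figure D2:**
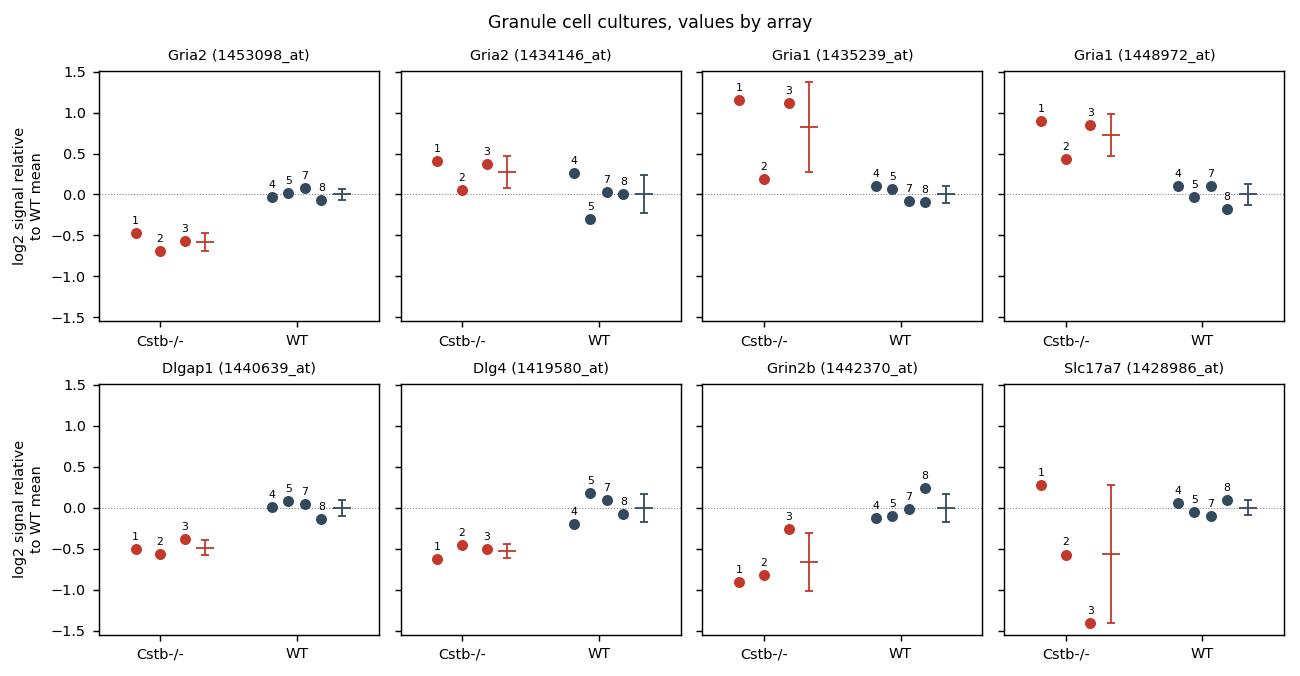
Log2 signal of each granule cell culture array relative to the WT mean (vertical axis), with Cstb-/- arrays to the left of WT arrays and the replicate number above each point; bars give the mean and SD. All Cstb-/- points of Gria2 1453098_at lie between -0.69 and -0.47, below every WT point, while the points of Gria2 1434146_at overlap and those of Slc17a7 span from 0.28 to -1.41 in Cstb-/- arrays.

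Kainate receptors, built from Grik1 to Grik5, modulate release and firing. The 2 probe sets of Grik3 pointed in opposite directions in every experiment. At P7, 1440177_at measured -0.50, -0.17, -0.32 and -0.74 in Cstb-/- cerebella, against -0.21, 0.15, 0.30 and -0.25 in WT cerebella (log2 difference -0.43, SE 0.15, adjusted p = 0.434). 1427709_at measured 0.23, 0.13, 0.11 and 0.48 in Cstb-/- cerebella, against -0.02, 0.04, -0.05 and 0.04 in WT cerebella, a log2 difference of 0.24 (SE 0.09, adjusted p = 0.460) without overlap.

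In cultures the signs of Grik3 were reversed. 1440177_at measured 0.82, 0.31 and 0.70 in Cstb-/- arrays, against 0.31, -0.25, 0.02 and -0.07 in WT arrays (0.61, SE 0.16, adjusted p = 0.0483), whereas 1427709_at differed by -0.37 (SE 0.13, adjusted p = 0.100). At P30, 1440177_at again lay lower in Cstb-/- cerebella, at -0.19, -0.48 and -0.16, against -0.15, 0.05 and 0.09 in WT cerebella (-0.28, SE 0.11, adjusted p = 0.594). The 2 probe sets of this gene therefore give no single direction for it in any experiment.

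Grik1 had the largest kainate value at P30. 1427676_a_at measured 0.40, 0.22 and 0.71 in Cstb-/- cerebella, against -0.35, 0.06 and 0.30 in WT cerebella, with WT array 3 inside the Cstb-/- range (log2 difference 0.44, SE 0.17, adjusted p = 0.599). Its other probe set, 1439987_at, differed by -0.16. Grik2, Grik4 and Grik5 differed by between -0.36 and 0.33 over the 3 experiments, with no adjusted p under the threshold.

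NMDA receptors need glutamate together with glycine or serine, and their Grin2 subunits set the kinetics of the channel. Grin2b is the subunit of immature neurons and gives way to Grin2a and Grin2c in maturing granule cells. Its probe set 1442370_at measured -1.38, 0.00, -0.13 and -0.89 in Cstb-/- cerebella at P7, against -0.15, 0.13, 0.21 and -0.19 in WT cerebella. The log2 difference of -0.60 (SE 0.26, adjusted p = 0.516) rested on Cstb-/- arrays 1 and 5, and it was -0.34 without array 1. The other Grin2b probe sets did not share this decrease at P7. They differed by 0.22 (1422223_at), 0.21 (1457003_at) and -0.02 (1431700_at), with overlapping arrays.

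In cultures Grin2b 1442370_at measured -0.91, -0.82 and -0.26 in Cstb-/- arrays, against -0.13, -0.10, -0.02 and 0.24 in WT arrays, a log2 difference of -0.66 (SE 0.16, adjusted p = 0.0411) without overlap. 1431700_at was lower in the same arrays by 0.34 (SE 0.10, adjusted p = 0.0698), also without overlap, at -0.32, -0.37 and -0.32 in Cstb-/- arrays against -0.15, 0.16, 0.14 and -0.15 in WT arrays. The remaining Grin2b probe sets differed by -0.23 and 0.03. At P30 the 4 Grin2b values lay between -0.06 and 0.07.

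Grin2a and Grin2c, the subunits of mature granule cells, differed by between -0.04 and 0.17 in the 3 experiments, with overlapping arrays. Of the 12 NMDA probe sets 10 were higher in Cstb-/- cerebella at P7, with a median of 0.15. None of them was apart, and means over the 12 ranged from -0.07 to 0.22 in Cstb-/- arrays and from -0.04 to 0.06 in WT arrays. Grin3a encodes a subunit that lowers the calcium flow of the channel, and at P30 its 3 probe sets differed by 0.21 to 0.25 (adjusted p between 0.678 and 0.770), with WT array 3 inside the Cstb-/- range in each.

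Grid1 belongs to the delta family, which binds cerebellins at the synapse and hardly conducts by itself. At P7 1421569_at measured 0.14, 0.34, 0.56 and 0.47 in Cstb-/- cerebella, against 0.02, 0.14, -0.02 and -0.14 in WT cerebella, where array 2 met the lowest Cstb-/- array. The log2 difference was 0.37 (SE 0.10, adjusted p = 0.336). The other Grid1 probe set, 1441499_at, differed by 0.01 (SE 0.18), and neither differed by more than 0.09 in size at P30 or in cultures.

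**Figure D3:**
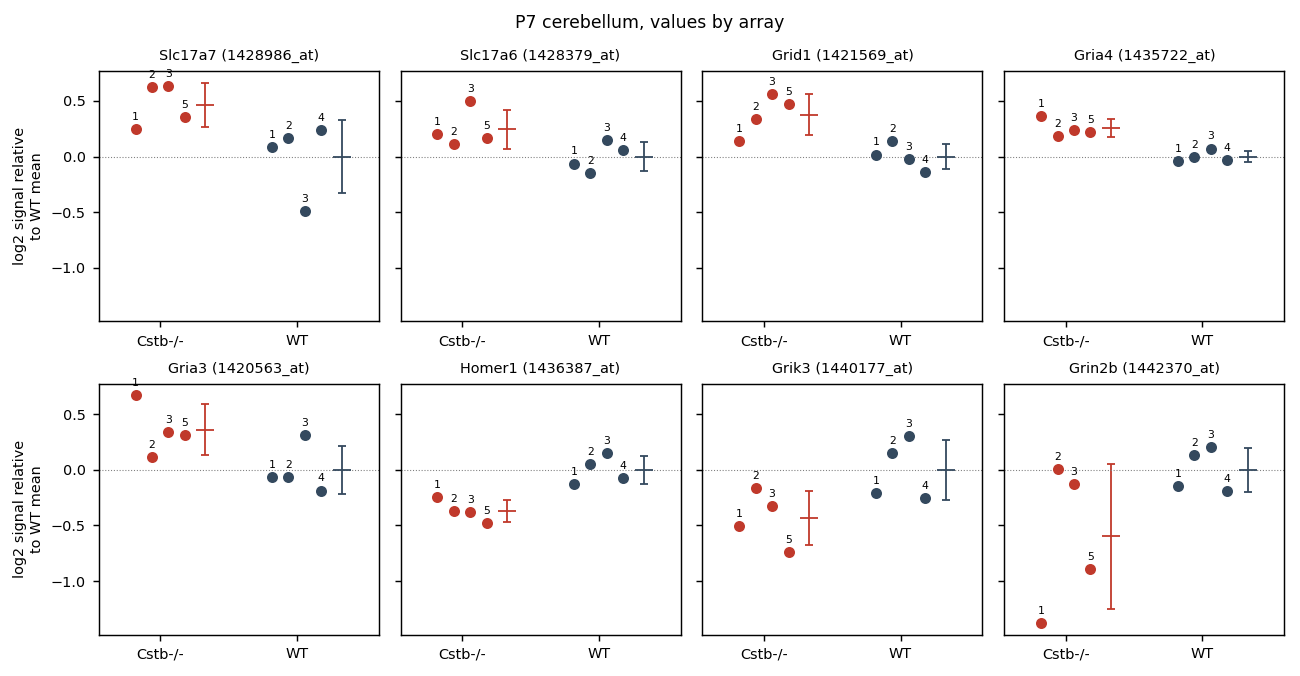
Log2 signal of each P7 cerebellum array relative to the WT mean (vertical axis), with Cstb-/- arrays to the left of WT arrays and the replicate number above each point; bars give the mean and SD. Slc17a7, Gria4 1435722_at and Homer1 1436387_at show no overlap, while Cstb-/- arrays 1 and 5 lie apart at -1.38 and -0.89 for Grin2b 1442370_at.

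Grm5 encodes a group I metabotropic receptor, which couples to phospholipase C and calcium release, and its probe set 1455272_at had the largest log2 difference in size among the 64 at P30. 1455272_at measured 0.38, 0.43 and 0.96 in Cstb-/- cerebella, against -0.30, 0.02 and 0.28 in WT cerebella, so that the arrays did not overlap. The log2 difference was 0.59 (SE 0.18, a fold of 1.51) with an adjusted p of 0.497. The second Grm5 probe set, 1456119_at, measured 0.18, 0.46 and 0.66 against -0.15, -0.14 and 0.30 in WT cerebella (0.43, SE 0.15, adjusted p = 0.553).

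WT array 3 was the highest WT array and Cstb-/- array 3 the highest Cstb-/- array in both Grm5 probe sets. Without Cstb-/- array 3 the difference of 1455272_at was 0.40, and without WT array 3 it was 0.73. At P7 both were higher in Cstb-/- cerebella by 0.22 and 0.23, and for 1456119_at this came from array 3, which measured 1.00 while the other Cstb-/- arrays lay between -0.05 and 0.01. In cultures they differed by 0.12 and -0.33 (adjusted p = 0.651 and 0.209).

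Group II and III receptors, which lower transmitter release through inhibitory G proteins, had small differences. Grm2, a receptor known from Golgi cells in the cerebellum, measured 0.11, 0.10 and 0.15 in Cstb-/- cultures, against -0.02, 0.06, -0.11 and 0.06 in WT cultures, which did not overlap at a log2 difference of 0.12 (SE 0.07, adjusted p = 0.300). Grm3 differed by -0.15 at P7 and 0.14 at P30. Grm4, which is known from the parallel fibre terminals of granule cells, differed by -0.12 at P7, 0.00 in size at P30 and -0.29 in cultures (adjusted p = 0.143).

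Of the 3 Grm7 probe sets, 1443119_at had the largest value of group III at P30, with 0.28, 0.01 and 0.57 in Cstb-/- cerebella against -0.27, -0.04 and 0.31 in WT cerebella (0.29, SE 0.17, adjusted p = 0.733). The 7 probe sets of groups II and III spread between -0.15 and 0.07 at P7.

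**Figure D4:**
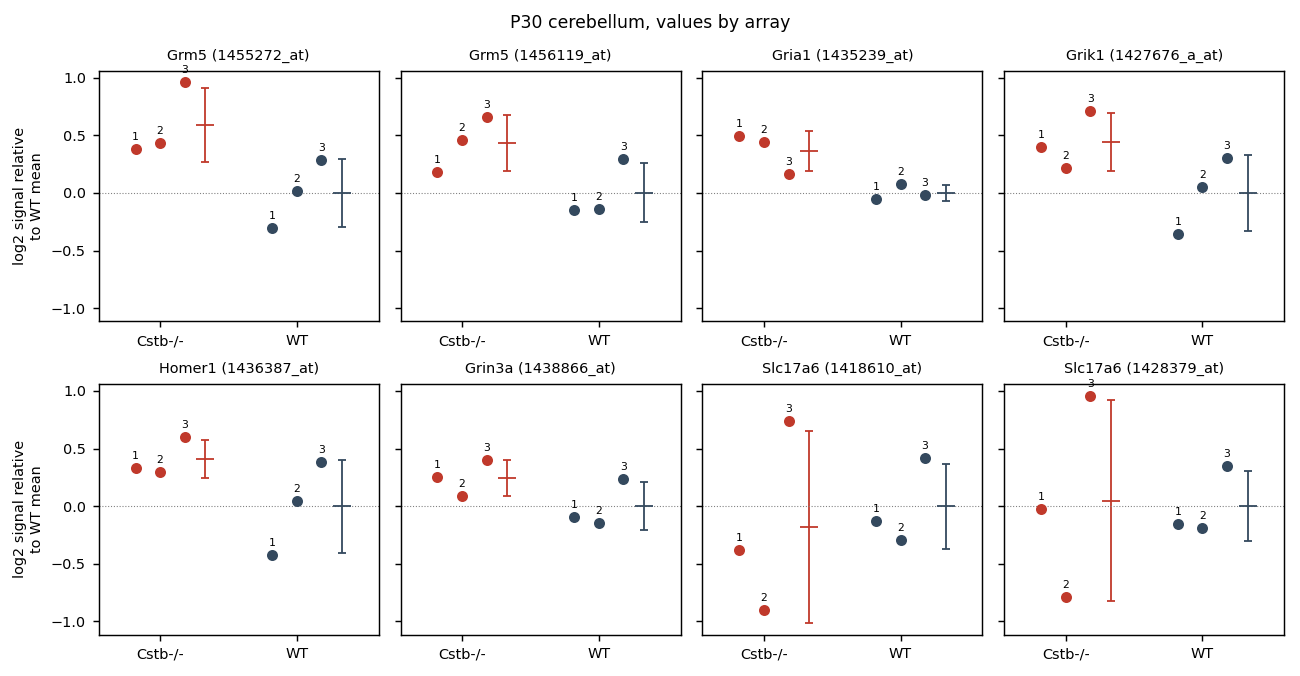
Log2 signal of each P30 cerebellum array relative to the WT mean (vertical axis), with Cstb-/- arrays to the left of WT arrays and the replicate number above each point; bars give the mean and SD. Grm5 1455272_at and Gria1 1435239_at show no overlap, while for both Slc17a6 probe sets Cstb-/- array 3 is the highest and Cstb-/- array 2 the lowest of the 6 arrays.

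The vesicular transporters Slc17a7 (VGLUT1) and Slc17a6 (VGLUT2) load glutamate into vesicles. In the cerebellum Slc17a7 marks parallel fibre terminals and increases as granule cells mature, while Slc17a6 is found in climbing fibres, mossy fibres and young granule cells. At P7 Slc17a7 measured 0.24, 0.62, 0.63 and 0.36 in Cstb-/- cerebella, against 0.08, 0.16, -0.49 and 0.24 in WT cerebella. The arrays stood just apart, the closest being Cstb-/- array 1 and WT array 4. The log2 difference of 0.46 (SE 0.15, a fold of 1.38, adjusted p = 0.423) was the largest positive one among the members at P7, and it was 0.30 without the low WT array 3.

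The 15 probe sets of mature granule neuron markers, a list that also holds the member Grin2c, were higher in Cstb-/- cerebella at P7, with a median of 0.29 and array means of 0.28 to 0.48, against -0.08 to 0.06 in WT arrays. Oligodendrocyte markers were higher in 26 of 26 probe sets (median 0.48) and choroid plexus markers lower in 15 of 16 (median -1.81). No marker probe set of these lists passed the thresholds at P7, and their part in the Slc17a7 value was not tested.

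In cultures Slc17a7 differed between arrays of the same genotype. It measured 0.28, -0.57 and -1.41 in Cstb-/- cultures, against 0.06, -0.05, -0.11 and 0.10 in WT cultures. The Cstb-/- range of 1.69 was reached by 0.175% of all probe sets, while the WT range was 0.20. The log2 difference was -0.57 (SE 0.32, adjusted p = 0.259), and it was -0.99 without Cstb-/- array 1 (adjusted p = 0.0472) and -0.14 without array 3. At P30 the difference was 0.21 (SE 0.12, adjusted p = 0.737).

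Slc17a6 had the widest spread of the members at P30, and this spread did not follow genotype. 1418610_at measured -0.38, -0.90 and 0.74 in Cstb-/- cerebella, against -0.13, -0.29 and 0.42 in WT cerebella, and 1428379_at measured -0.03, -0.79 and 0.96, against -0.16, -0.19 and 0.35. Array 3 was the highest of each genotype in both. Ranges of 1.64 and 1.74 over the 6 arrays were reached by 0.262% and 0.238% of all probe sets, and the genotype differences were -0.18 and 0.05 (SE 0.36 each). At P7 Slc17a6 differed by 0.10 and 0.24 (adjusted p = 0.744 and 0.498) and in cultures by 0.26 and 0.15 (adjusted p = 0.234 and 0.357).

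Of the scaffolds, Homer1 links group I metabotropic receptors to calcium stores and had 6 probe sets. At P7 1436387_at measured -0.24, -0.37, -0.38 and -0.48 in Cstb-/- cerebella, against -0.13, 0.05, 0.15 and -0.07 in WT cerebella. The arrays did not overlap, and the log2 difference of -0.37 (SE 0.08) had the lowest adjusted p of the members at this age, 0.269. A second probe set, 1437363_at, stood apart in the other direction, at 0.25, 0.30, 0.17 and 0.14 in Cstb-/- cerebella against 0.13, 0.07, -0.15 and -0.06 in WT cerebella (0.22, SE 0.08, adjusted p = 0.470).

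The mean of the 6 Homer1 probe sets differed by 0.00 at P7, and the other 4 by between 0.01 and 0.08. With the labelled sex of the mice in the fit, Homer1 1436387_at (-0.46, adjusted p = 0.0260) and Grik3 1440177_at (-0.63, adjusted p = 0.0299) passed the thresholds at P7, as did 1108 of all probe sets. By the labels 3 of 4 Cstb-/- mice and 1 of 4 WT mice were male at this age. At P30, Cstb-/- array 1 was labelled female and the other arrays male, while the methods give males only. With the labelled sex in the fit, 29 of all probe sets passed the thresholds at P30, against 65 without it, and no member did in either. At P30 the same Homer1 probe set was higher in Cstb-/- cerebella, at 0.33, 0.30 and 0.60, against -0.42, 0.04 and 0.38 in WT cerebella (0.41, SE 0.18, adjusted p = 0.644). The mean of the 6 Homer1 probe sets differed by only 0.02 at P30, and their signs were not all the same.

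Dlg4 (PSD-95) and Dlgap1 sit at the core of the postsynaptic density, and each had 1 probe set near the threshold in cultures. Dlgap1 1440639_at measured -0.50, -0.57 and -0.39 in Cstb-/- cultures, against 0.01, 0.08, 0.05 and -0.14 in WT cultures (-0.49, SE 0.08, adjusted p = 0.0121). Dlg4 1419580_at measured -0.63, -0.46 and -0.50, against -0.20, 0.17, 0.10 and -0.07 in WT cultures (-0.53, SE 0.10, adjusted p = 0.0192). Neither passed the threshold of 0.01 and neither overlapped.

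The remaining probe sets of these genes did not share the decrease. The other 5 of Dlgap1 differed by between -0.09 and 0.24 in cultures and the other 2 of Dlg4 by -0.02 and -0.08. Over the 20 scaffold probe sets the median in cultures was -0.04, with 8 higher and 12 lower in Cstb-/- cultures. Homer2 1457671_at was lower without overlap in cultures, by 0.22 (SE 0.08, adjusted p = 0.101). Shank3, a scaffold that joins the Homer and Dlgap layers, measured 0.23, 0.14, 0.42 and 0.16 in Cstb-/- cerebella at P7, against 0.04, -0.14, 0.02 and 0.08 in WT cerebella (0.24, SE 0.08, adjusted p = 0.440).

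Markers of other cells moved strongly in the cultures in which these values were read. Meningeal fibroblast markers rose in 13 of 17 probe sets (median 1.53, array means of 1.57 to 1.67 in Cstb-/- arrays and -0.09 to 0.11 in WT arrays), although the meninges had been removed. Markers of dividing cells rose in 11 of 15 (median 1.46, array means of 1.14 to 1.21 in Cstb-/- arrays and -0.08 to 0.05 in WT arrays). Mature granule neuron markers had a median of 0.03, with 1 of 15, of Fat2, that fell. The part of these markers in the values of Gria2, Gria1, Dlg4, Dlgap1 and Grin2b was not tested.

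At P30 microglia markers rose in 10 of 16 probe sets, with a median of 0.77 and array means of 1.01 to 1.25 in Cstb-/- arrays and -0.15 to 0.14 in WT arrays. Choroid plexus markers were lower in 16 of 16 (median -0.88), none of them changed. The part of these markers in the Grm5 and Gria1 values was not tested.

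Where a gene had several probe sets, they often differed in sign. Of 18 such genes, 10 had the same sign in all their probe sets at P7, 7 at P30 and 8 in cultures. Gria1, Grik2 and Grin3a did so in all 3 experiments, with Gria1 and Grin3a higher and Grik2 lower in Cstb-/- samples each time, none of these past the thresholds.

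Whether the genotype difference itself differed between experiments was tested by a contrast of contrasts. Between P30 and P7 none of the 64 probe sets differed at an adjusted p under 0.05, against 0.124% of all, and 5 did at an unadjusted p under 0.05, 7.81% against 7.78%. Between cultures and P7, 14 differed, against 20.3% of all probe sets, and 21 at the unadjusted p, 32.8% against 35.1%. Between cultures and P30, 1 differed, against 5.1% of all, and 10 at the unadjusted p, 15.6% against 20.1%. These shares were near or below those of all probe sets.

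The 14 came from AMPA subunits (5), kainate subunits (3), NMDA subunits (2), Grid1, Slc17a7, Dlgap1 and Shank3, and 10 of them had the lower value in cultures. The 2 largest were of Grik3 1440177_at, at 0.61 in cultures against -0.43 at P7 (difference 1.04, SE 0.22, adjusted p = 0.00216), and of Slc17a7, at -0.57 in cultures against 0.46 at P7 (difference -1.03, SE 0.33, adjusted p = 0.0333). Gria2 1453098_at differed by -0.57 between these experiments (SE 0.13, adjusted p = 0.00535) and Dlgap1 1440639_at by -0.64 (SE 0.12, adjusted p = 0.00125). Grik3 1440177_at was also the probe set that differed between cultures and P30 (0.89, SE 0.23, adjusted p = 0.0284). Tissue of 1 age and dissociated cells in culture differ in cell composition as well as in age, and these cannot be told apart here.

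**Figure D5:**
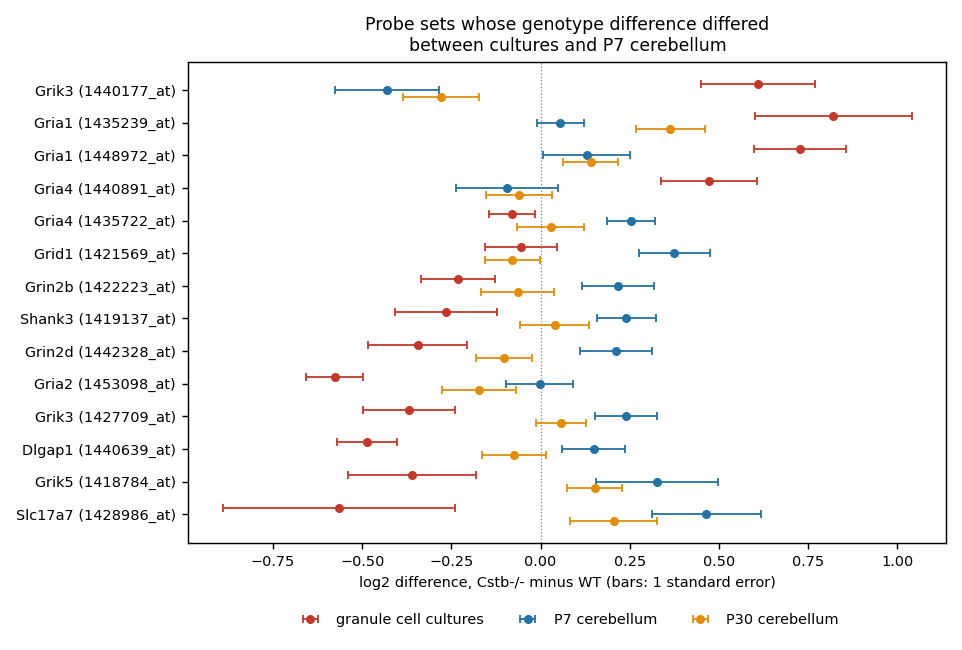
Log2 difference (Cstb-/- minus WT, horizontal axis) with its standard error for the 14 probe sets (vertical axis) whose difference was not the same in cultures and P7 cerebella by the test, with P30 shown beside them. Slc17a7 and Grik3 1440177_at lie furthest apart, at -0.57 and 0.61 in cultures against 0.46 and -0.43 at P7.

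Proteins that accompany these receptors were described from 4 further lists, and no probe set of these lists passed the thresholds in the 3 experiments. The first comprised auxiliary and trafficking proteins of AMPA and kainate receptors (40 probe sets of 20 genes), of which 27 were higher in Cstb-/- cerebella at P7, 24 at P30 and 21 in cultures. At P7 a probe set of Cacng2 (stargazin), which carries AMPA receptors to the synapse of granule cells, was nearest to the threshold. It lay between 0.23 and 0.43 in Cstb-/- arrays and between -0.16 and 0.10 in WT arrays (log2 difference 0.34, adjusted p = 0.272). The other probe sets of Cacng2 are not given here, so these values do not stand for the gene as a whole. In cultures 8 of the 40 were higher and 3 lower at an unadjusted p under 0.05, 27.5% against 31.6% of all probe sets. The largest positive difference was of Shisa9 1435424_x_at, between 0.34 and 1.57 in Cstb-/- arrays and between -0.27 and 0.49 in WT arrays (1.14, adjusted p = 0.0538). The lowest adjusted p was that of Cacng4 1450975_at (0.65, adjusted p = 0.0293). The other probe sets of Shisa9 and Cacng4 are not given here. The most negative was Cacng7, a relative of stargazin, which lay between -1.49 and -0.41 in Cstb-/- arrays and between -0.24 and 0.28 in WT arrays for 1439745_at (-1.03, adjusted p = 0.0338), while its second probe set, 1426336_at, differed by -0.12 (adjusted p = 0.664).

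Of glutamate uptake and metabolism (31 probe sets of 11 genes), 19 were higher at P7, 20 at P30 and 21 in cultures in Cstb-/- samples. In cultures 12 of the 31 were higher and 4 lower at an unadjusted p under 0.05, 51.6% against 31.6% of all probe sets. Slc1a3 (GLAST), the transporter of Bergmann glia that clears glutamate, has 6 probe sets, whose differences lay between -0.22 and 0.19 at P7, between -0.15 and 0.20 at P30 and between 0.09 and 1.04 in cultures, where the lowest adjusted p was 0.0344. These 6 are also in the astrocyte and Bergmann glia marker list, and without them 11 of 25 (44%) had an unadjusted p under 0.05 in cultures, 7 higher and 4 lower. Slc1a2 (GLT-1), the main glutamate transporter of astrocytes elsewhere in the brain, had differences between -0.78 and 0.02 over its 5 probe sets in cultures, with the lowest adjusted p at 1438194_at (-0.42, adjusted p = 0.0275). The part of the astrocyte markers in these values was not tested. Of further scaffolds, adhesion proteins and kinases (61 probe sets of 21 genes), 41, 36 and 30 were higher in the same order. Of effectors of group I metabotropic receptors (25 probe sets of 7 genes), 15, 19 and 12 were higher. In these 4 lists the medians lay between -0.02 and 0.11, against medians of all probe sets between -0.02 and 0.01.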

How the data were processed

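Total RNA had been labelled and hybridized to Affymetrix arrays. The authors made RMA values from the signals, with background correction and quantile normalization, and centred each probe set on its median. What they deposited are these values on the log2 scale, and the centring proved to have been done separately for each experiment. Of the arrays, 4 Cstb-/- and 4 WT at P7, 3 and 3 at P30, and 3 and 4 of cultures were analysed here. The 64 control probe sets were left out.

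The genotypes were compared within each experiment by limma 3.58.1 in R 4.3.3 (lmFit and eBayes, 2-sided), with Benjamini-Hochberg adjustment over 45037 probe sets. The fold and p thresholds of the methods were kept: a fold of at least 1.3, with an adjusted p under 0.05 for cerebella and under 0.01 for cultures. The authors' filter on expression was not applied and limma replaced their t-test, so the counts of changed probe sets are not comparable with theirs. Differences between experiments were contrasts in 1 fit over all groups at an adjusted p under 0.05. Gene names are those of the platform annotation, in which 34945 probe sets had 1 symbol, 932 several and 9160 none.

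Named were the probe sets that changed, those with the largest difference of each role in each experiment, those apart at a fold of 1.3, and the further probe sets of these genes. Others, chosen after their values were seen, are most of the remaining probe sets whose arrays did not overlap, those that differed between experiments, Slc17a6 and Grin3a. The non-overlapping probe sets of Grik5 and Dlgap1 at P30 were not singled out. The members and lists were chosen with earlier results of these data known. The alternatives tried were the methods' t-test, a robust variance, array weights, a joint fit of the groups, the sex given in the labels, centred or quantile-normalized arrays, other thresholds, gene means, probe set types, the replicate number as a block, and each array left out. The fit was tested on simulated data. Figures were drawn with matplotlib in Python. The number of arrays limits the precision.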

Additional observations from a re-analysis of the deposited data

Results flagged for a closer look

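In 2 results an array lay far from the others of its group of 4. In P7 cerebella, Grm5 1456119_at measured 1.00 in Cstb-/- array 3, while the other Cstb-/- arrays lay between -0.05 and 0.01. In cultures, Gria4 1440891_at measured -0.34 in WT array 5, while the other WT arrays lay between 0.07 and 0.15. Of 31 groups of 4 arrays examined, 2 were marked in this way, and chance alone marks about 1 in 20.

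The genotype difference differed between cultures and P7 cerebella by the contrast test for 14 probe sets, here given as the log2 difference in cultures minus that at P7. It was higher in cultures for Gria1 1435239_at (0.77) and 1448972_at (0.60), Gria4 1440891_at (0.57) and Grik3 1440177_at (1.04). It was lower in cultures for Gria2 1453098_at (-0.57), Gria4 1435722_at (-0.33), Grik3 1427709_at (-0.61), Grik5 1418784_at (-0.69), Grin2b 1422223_at (-0.45), Grin2d 1442328_at (-0.56), Grid1 1421569_at (-0.43), Slc17a7 1428986_at (-1.03), Dlgap1 1440639_at (-0.64) and Shank3 1419137_at (-0.51). Between cultures and P30 cerebella it differed for Grik3 1440177_at (0.89). As 20.3% and 5.1% of all probe sets differed in these contrasts, the counts say nothing particular of glutamate receptors.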

How the results depend on the processing

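The count of changed members stayed at 0 at P7 and P30 under the alternatives run, except that 2 fell at P7 with the labelled sex in the fit (3.12% against 2.46% of all probe sets). In cultures the count of 1 became 0 by the methods' t-test (Gria2 1453098_at adjusted p = 0.0347), with quantile-normalized values (-0.54, adjusted p = 0.0165), at a fold of 1.5 (-0.58 as before) and for gene means (-0.13, adjusted p = 0.368). It became 3 with array weights (4.69% of members against 6.28% of all probe sets), 5 in 1 fit over all groups (7.81% against 12.7%), 2 with the labelled sex (3.12% against 2.79%) and 6 at an adjusted p under 0.05 (9.38% against 9.05%). Leaving out 1 culture array gave 0 to 3, the 3 (4.69% against 5.96%) without Cstb-/- array 2 (both of Gria1, and Gria2), with Gria2 between -0.63 and -0.52. The median member difference moved at P30 to 0.0043 with array weights and ranged from -0.0022 to 0.0325 on leaving out arrays, turning sign without Cstb-/- array 2. In cultures it moved to -0.0571 with quantile-normalized values and ranged from -0.0560 to 0.0058 on leaving out arrays, positive without Cstb-/- array 2. At P7 it ranged from 0.0404, without Cstb-/- array 3, to 0.0993.

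Members whose difference differed between cultures and P7 numbered 4 to 16 on leaving out 1 array, and the share of all probe sets moved as well. The 4 (6.25% against 13.4% of all) came without Cstb-/- culture array 3, and the 16 (25% against 20.4%) without Cstb-/- array 1 of P7. There were 8 (12.5% against 17.4%) without Cstb-/- array 3 of P7 and 9 (14.1% against 15.4%) without WT culture array 5. Between cultures and P30 they numbered 0 to 4, the 0 where 3.26% to 3.86% of all probe sets differed. The 4 (6.25% against 12.9%) came without Cstb-/- culture array 2. Of 31 named results, 29 kept their direction throughout. Homer1 1436387_at at P7 turned to 0.0047 as the mean of its gene, and Grm5 1456119_at at P7 to -0.0198 without Cstb-/- array 3, and was at most 0.328 on leaving out any other. Deviations of arrays that share a replicate number correlated at 0.01, 0.05 and 0.17 at P7 and at -0.04, -0.18 and -0.03 at P30. Only Cstb-/- array 3 of P7 correlated best with the WT array of its own number. So few arrays cannot exclude handling shared by number. With the number as a block no member changed at P7 or P30, with medians of 0.10 and 0.03. No such fit was possible in cultures, where the genotypes share no number. How far signals stood over background was not kept in the values.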

Other observations

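Probe sets with a wide range at P30 were ranked by their correlation with the mean of the Slc17a6 probe sets over the 6 arrays. Kcnc2 and Meis2 stood at the top of that ranking. Their likeness to Slc17a6 therefore follows from the way they were chosen, and nothing further is read from it. Relative to the WT mean, the potassium channel gene Kcnc2 measured -0.21, -1.01 and 1.14 in Cstb-/- cerebella and -0.11, -0.32 and 0.44 in WT cerebella. The homeobox gene Meis2 measured -0.44, -0.94 and 1.18 in Cstb-/- cerebella and -0.18, -0.36 and 0.54 in WT cerebella. In both, as in Slc17a6, array 3 was the highest of each genotype and array 2 the lowest.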
